A study of Mus musculus with 24 samples.

Results

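The miR-181 family is described here by 3 mature microRNAs, mmu-miR-181a-5p, mmu-miR-181b-5p and mmu-miR-181d-5p, taken by name from the 1881 mouse miRNAs of the array and written without the mouse prefix from here on. RNA of serum exosomes, the small membrane vesicles that cells release into blood, was measured on 24 one-colour arrays. The mice were male BALB/c animals, whose age is not given in the sources used here. They received toosendanin, a plant triterpenoid, at 80 mg/kg or the vehicle alone, for 3, 9 or 21 days, with 4 samples in each of the 6 groups and serum drawn after the last administration. Whether each sample was 1 animal or a pool is not given in the labels, so the p-values measure only the spread between these samples.

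MicroRNAs guide Argonaute proteins to messenger RNAs by pairing, mainly through the seed near the 5′ end, and so lower the output of their targets. The miR-181 family is known for its roles in lymphocyte development and T-cell signalling, and it is also made in brain, muscle, liver and endothelium. Circulating miRNAs come from many tissues and blood cells, so a level in serum exosomes does not name its source.

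The mature sequences are shown because the 3 members differ by few bases, which matters for a hybridisation assay. All 3 matched the RefSeq entries of GRCm38.p6. The seed, bases 2 to 8, is in capitals.
miR-181a-5p: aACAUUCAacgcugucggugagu
miR-181b-5p: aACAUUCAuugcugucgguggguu
miR-181d-5p: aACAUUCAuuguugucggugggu
miR-181c-5p: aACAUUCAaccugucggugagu

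The seed was the same in all 4 and was held by these 4 alone among the 1679 mature names of the table. Counted from the 5′ end, miR-181a-5p and miR-181b-5p differed at 3 of 23 positions (A9U, C10U and A21G). From miR-181b-5p to miR-181d-5p there was a single change over the same positions, C12U. Mature miR-181a-5p is encoded at chr1:137966468-137966490 and chr2:38852741-38852763, and miR-181b-5p at chr1:137966650-137966673 and chr2:38853845-38853868, all on the plus strand. The array cannot tell the paired loci apart, since both give the same mature RNA. The chromosome 2 hairpins lie within the annotated spans of Nr6a1, which encodes an orphan nuclear receptor, and of the long noncoding RNA Nr6a1os, while no annotated gene spans the chromosome 1 hairpins. Whether the chromosome 2 hairpins are intronic was not analysed here. miR-181d-5p comes from 1 locus on the minus strand, chr8:84178759-84178781, beside the hairpin of miR-181c.

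Each member was read by a pair of probes. The brighter of each pair, shown because it stands for the miRNA in every value that follows, had this sequence, 5′ to 3′, with the bases opposite positions that differ among the members in capitals.
miR-181a-5p probe: acTcaccgacaGcG
miR-181b-5p probe: acCcaccgacaGcA
miR-181d-5p probe: acCcaccgacaAcAAtg

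Every probe paired with its own target without a mismatch. The 14-base probe of miR-181a-5p had 2 mismatches to miR-181b-5p and 3 to miR-181d-5p. The probe of miR-181b-5p had 1 mismatch to miR-181d-5p, and the 17-base probe of miR-181d-5p had 1 mismatch to miR-181b-5p. Cross-hybridisation between the members was not tested, so a weak signal of miR-181b-5p beside a stronger one of miR-181d-5p cannot be assigned to 1 of them by these probes.

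The arrays of the toosendanin groups were brighter as a whole. The 75th percentile of the signal, taken over the 261 probes that every one of the 24 arrays marked as well above background, averaged 165 and 1171 at day 3, 148 and 1524 at day 9, and 307 and 1419 at day 21 in control and toosendanin samples (7.07, 10.3 and 4.62-fold). The exact permutation p was 0.0286 at each day, the smallest that 4 against 4 arrays allow (0.0322 after Benjamini-Hochberg adjustment over 9 measures). No slide held both arms and no scan date covered both, so treatment cannot be told apart from slide or scan. The lowest signal well above background was 7.24 to 10.3 on control arrays and 9.55 to 12.7 on toosendanin arrays, and negative-control spots averaged between -0.046 and 1.84 in the first and between -0.755 and 0.146 in the second.

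In the scanner's own units, all 3 members were brighter in toosendanin samples than in control samples at every day, and 2 of them were well above background in toosendanin samples alone. Without scaling, 88.2%, 90.5% and 93.9% of the 441 miRNAs tested passed limma's test (adjusted p below 0.05) at days 3, 9 and 21. Of these, 99.5%, 98.7% and 100% were higher in toosendanin samples. miRNAs well above background averaged 234, 220 and 272.8 on control arrays and 431.2, 436 and 456.8 on toosendanin arrays. miR-181a-5p read -0.0787, -0.271, 0.333 and 0.0177 in the 4 control samples of day 3 and 17.1, 12.1, 17.7 and 16.7 in the toosendanin samples. At day 9 its control signals were 0.69, 0.454, 0.656 and 0.976, against 13.2, 12.1, 12.5 and 7.18. At day 21 they were -0.392, 2.47, 2.68 and 1.33, against 21.7, 15.3, 16.4 and 17.6. The groups did not overlap at any day, and miR-181a-5p passed the well-above-background mark on 0 of 12 control arrays and 11 of 12 toosendanin arrays.

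miR-181b-5p gave much the same picture. Its control signals ran from 0.0835 to 1.34 at day 3, from 0.472 to 0.873 at day 9 and from 0.733 to 2.67 at day 21. Its toosendanin signals ran from 10.4 to 16.2, from 10 to 15.5 and from 13.8 to 20.5. It passed that mark on 0 of 12 control arrays and 10 of 12 toosendanin arrays.

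miR-181d-5p was the brightest probe of the 3, although levels of different probes cannot be compared. It read 2.18, 3.48, 5.06 and 4.74 in control samples of day 3 and 31.8, 21.2, 30.6 and 34.2 in toosendanin samples. At day 9 the control signals were 5.91, 6.16, 12.1 and 4.19, against 42.6, 34.6, 37.4 and 29.4. At day 21 they were 4.75, 16.4, 22.8 and 10.5, against 47.1, 34.7, 42.4 and 42.4. The groups again did not overlap in these units, and miR-181d-5p passed the mark on 4 of 12 control arrays, 1 of day 9 and 3 of day 21, and on 12 of 12 toosendanin arrays.

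**Figure D1:**
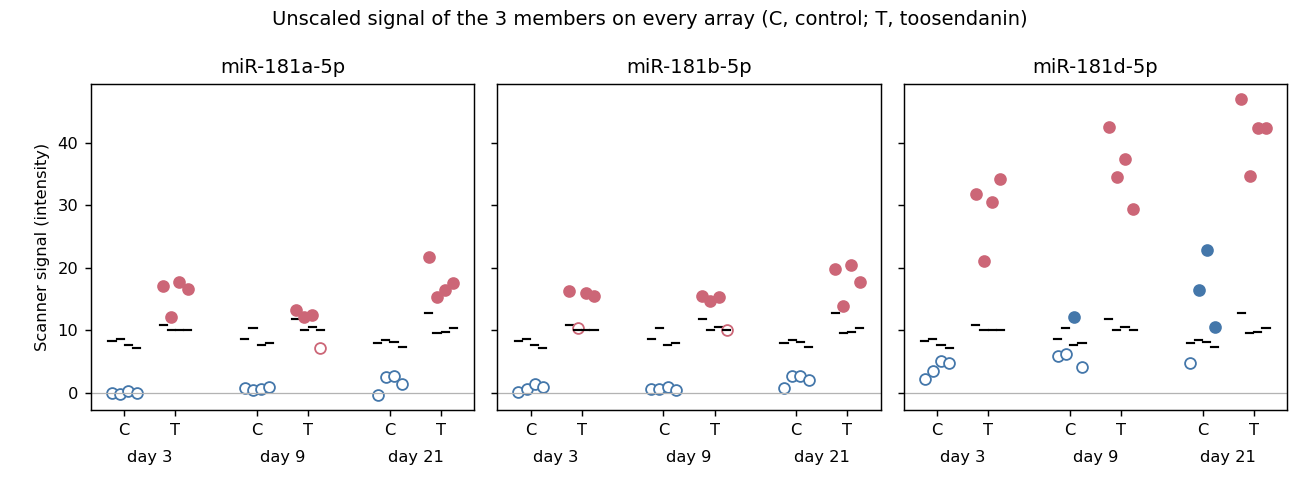
Scanner signal (intensity, linear axis) of the 3 members on each of the 24 arrays, by day and arm. Filled points are well above background, open points are not, and the short black lines mark the lowest signal well above background on that array. Control points of miR-181a-5p and miR-181b-5p lie near 0 at all 3 days, and toosendanin points of miR-181d-5p lie between 21.2 and 47.1.

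The second probe of each miRNA was dimmer. That of miR-181a-5p, which has 13 bases, was well above background on 0 of 12 toosendanin arrays, with signals of 2.38 to 6.62. The second probes of miR-181b-5p and miR-181d-5p were well above background on 9 and 12 of the 12 toosendanin arrays. Detection of miR-181a-5p therefore rests on 1 of its 2 probes.

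These raw differences ran the way the whole array did. The signal that each control array would have shown, had a member held the same share of the 75th percentile as in toosendanin samples of that day, was compared with the lowest signal well above background on that array. For miR-181a-5p it lay between 0.541 and 7.71 and for miR-181b-5p between 0.671 and 7.76, below that limit on every control array. At these brightnesses the control arrays could not have detected either member at the toosendanin share, and absence from control serum exosomes was not measured. For miR-181d-5p the signal at that share exceeded the limit only on control day 21 replicates 2 and 3 (10.5 and 18.1).

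Relative to the array, miR-181d-5p alone of the 3 had control values above the floor described next. It was well above background on only 4 of 12 control arrays, so a value above that floor was not always a detected one. After division by the 75th percentile, with a common floor of 0.0135 (-6.21 on the log2 scale) below which values have no order, miR-181a-5p and miR-181b-5p lay at the floor on 21 of 24 arrays each. None of their 6 toosendanin-minus-control differences passed limma's test at an adjusted p of 0.05 over the 441 miRNAs tested. The largest was 0.13 for miR-181a-5p at day 3 (SE 0.0517, adjusted p = 0.0518). The sizes are set by where the floor is put: at 0.5 of that value, the difference of miR-181a-5p at day 3 was 1.04 and that of miR-181b-5p 0.9. Both members entered the fit through toosendanin groups alone, so neither setting measures a change. No fold change can be bounded for either in any of the 3 comparisons.

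miR-181d-5p, which was above the floor on all 24 arrays, was called in 2 of the 3 comparisons. It too entered the fit through toosendanin groups alone. Of the 4 control arrays of each day, 0 at day 3, 1 at day 9 and 3 at day 21 were well above background for it. At day 9 its log2 scaled signals were -4.32, -4.13, -4.59 and -4.14 in control and -5.31, -5.55, -5.22 and -5.56 in toosendanin samples. The groups did not overlap, and the difference was -1.12 (SE 0.168, limma adjusted p = 1.23e-05), but without any scaling it was 1.81 in the opposite direction (adjusted p = 2.3e-07). At day 21 the signals were -4.10, -4.43, -4.74 and -4.12 in control and -5.21, -4.97, -5.15 and -4.98 in toosendanin samples, again without overlap. The difference was -0.73 (adjusted p = 0.00145), and 1.57 in the opposite direction without scaling. With the dimmer second probe the arms overlapped at both of these days. Its percentage of the 75th percentile at day 9 ran from 1.565 to 3.717 in control and from 1.288 to 1.867 in toosendanin samples. At day 21 it ran from 1.719 to 2.663 in control and from 1.664 to 2.096 in toosendanin samples. With the brighter probe the groups overlapped at day 3. Control signals ran from -5.77 to -4.92 and toosendanin signals from -5.59 to -5.12. The difference was 0.13 (limma adjusted p = 0.588), against 1.59 without scaling (adjusted p = 1.62e-06). Of all tested miRNAs, 47.8% were called at day 3, 62.1% at day 9 and 44.9% at day 21 with the main scaling (29.3%, 27.7% and 23.1% higher, and 18.6%, 34.5% and 21.8% lower). The counts of 0, 1 and 1 member of 3 are to be read against those shares.

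**Figure D2:**
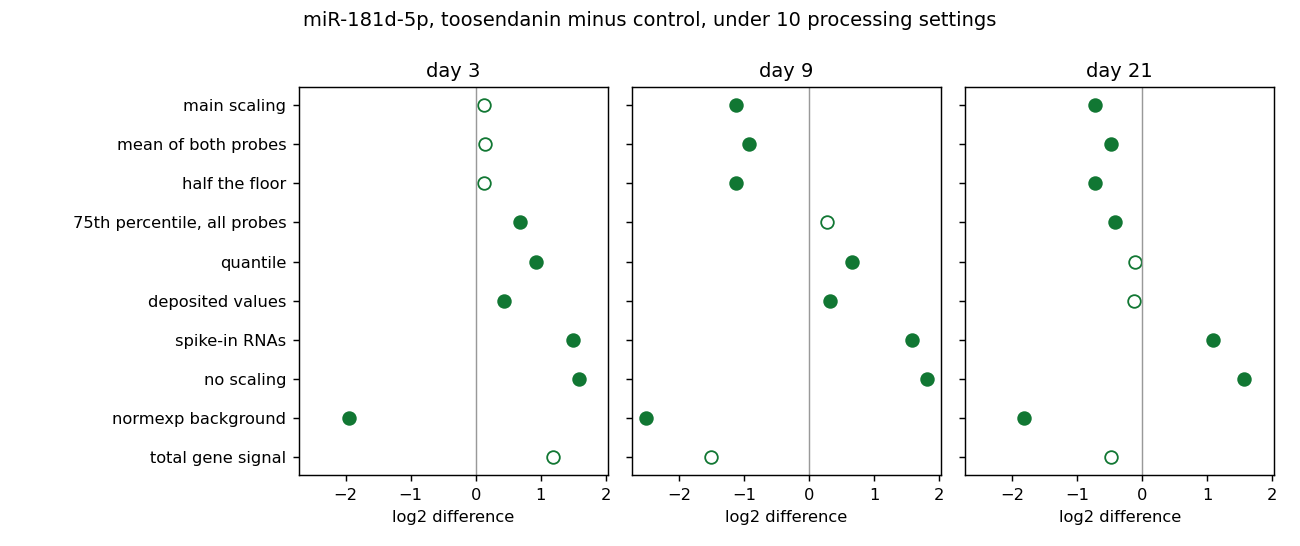
Difference of miR-181d-5p between toosendanin and control samples (log2, x axis) at each day under 10 processing settings. Filled points have a limma adjusted p below 0.05 and open points do not, and the vertical line is 0. At day 9 the value was -1.12 with the main scaling, -2.5 with the normexp correction and 1.81 with no scaling.

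The direction depended on the scaling. At day 9 the difference of miR-181d-5p was 0.27 when the 75th percentile was taken over all probes, 0.66 after quantile normalization, 1.59 with the spike-in RNAs as reference and 0.32 in the authors' deposited values. At day 21 the spike-in reference gave 1.09, quantile normalization -0.11 and the deposited values -0.13. The median difference of all tested miRNAs moved as well, from -0.04 with the main scaling to 2.42 without scaling at day 9, and from 0.01 to 2.07 at day 21. Set beside the median of all tested miRNAs, miR-181d-5p lay below it at day 3 in 3 of 7 settings (from -0.61 without scaling to 0.47 with quantile normalization), at day 9 in 6 of 7 settings (by -0.01 in the deposited values and up to -1.08 with the main scaling), quantile normalization giving 0.12, and at day 21 in 7 of 7 (from -0.74 to -0.29). With the normexp background correction all 3 members were lower in toosendanin samples at every day, with differences from -2.8 to -1.81, and the median of all miRNAs was itself -2.07 at day 9.

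The share of the 75th percentile was also taken without a floor, a calculation added after the values had been seen. For miR-181a-5p and miR-181b-5p it rests on control signals of which none was well above background. For miR-181a-5p it averaged -0.0411% ± 0.17 in control and 1.41% ± 0.25 in toosendanin samples at day 3 (SD, n = 4), 0.639% ± 0.481 and 0.735% ± 0.159 at day 9, and 0.345% ± 0.566 and 1.27% ± 0.133 at day 21. The groups did not overlap at days 3 and 21 (exact permutation p = 0.0286, 0.0368 after adjustment over 9 tests) and overlapped at day 9 (p = 0.743, exact). For miR-181b-5p the groups did not overlap at any day, with toosendanin samples higher by 0.868, 0.433 and 0.479 percentage points. For miR-181d-5p the share averaged 2.4% ± 0.625 and 2.58% ± 0.353 at day 3, 5.14% ± 0.729 and 2.36% ± 0.284 at day 9, and 4.99% ± 0.997 and 2.97% ± 0.25 at day 21.

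Among all tested miRNAs, toosendanin samples lay above control samples without overlap in 29.7%, 27.7% and 25.2% at the 3 days and below them in 17%, 28.1% and 19.7%. Even among the 1337 miRNAs well above background on no array, 16.4%, 15.3% and 17.9% lay above without overlap and 14.9%, 17.7% and 6.66% below. Signals of a few units are close to those of the negative-control spots, whose SD was 1.5 to 2.2. With the mean of those spots taken off first, miR-181a-5p at day 9 no longer overlapped (0.826 points higher, exact p = 0.0286) and miR-181d-5p stayed lower by 2.08 and 1.96 points at days 9 and 21. In 4 of the 6 groups the brightest array had the lowest share of miR-181d-5p, such as 3.74% in the day 21 control sample with a 75th percentile of 609. The part of brightness in the lower share was not tested.

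**Figure D3:**
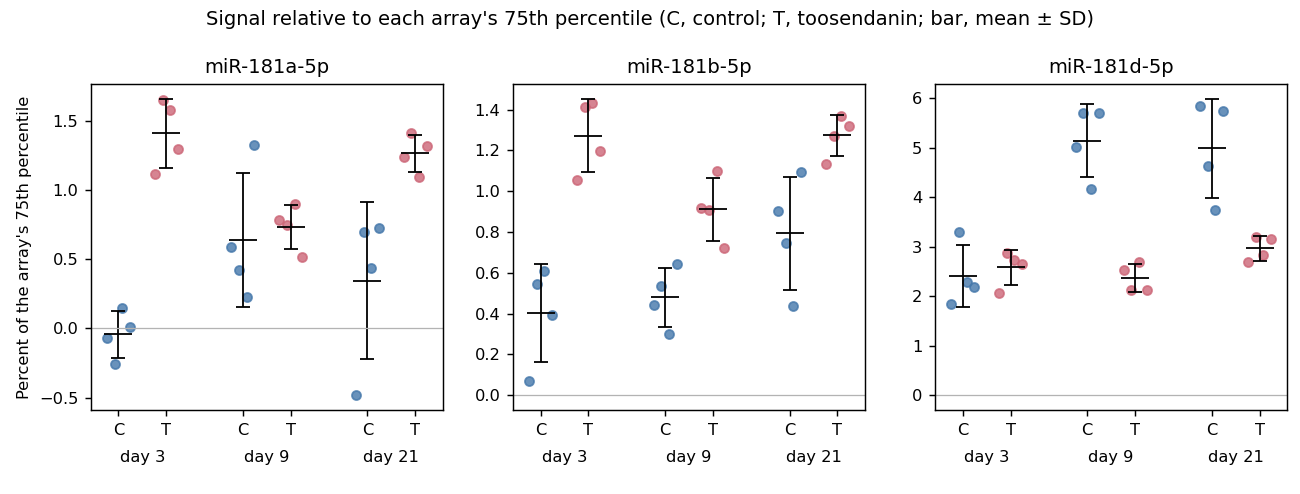
Signal of each member as a percentage of its array's 75th percentile (linear axes that differ between panels), by day and arm. Points are single arrays and black bars are mean ± SD of 4. miR-181d-5p control samples of days 9 and 21 lie above every toosendanin sample of the same day, and those of miR-181b-5p lie below.

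The difference of miR-181d-5p between the arms was not the same at the 3 days. It fell by 1.25 from day 3 to day 9 (SE 0.237, limma adjusted p = 0.00106 for the interaction) and by 0.86 from day 3 to day 21 (adjusted p = 0.0241). From day 9 to day 21 the change was 0.39 (adjusted p = 0.201). For all tested miRNAs, 19%, 13.4% and 35.1% were called in these interactions, in the same order. Without scaling the first of these was 0.22 (adjusted p = 0.873) and the second -0.02 (adjusted p = 0.998). The second also lost its call when both probes were averaged (-0.63, adjusted p = 0.0641) and with no detection filter (adjusted p = 0.119), and without any 1 of 4 arrays, control day 3 replicates 1 and 4, control day 21 replicate 4 and toosendanin day 21 replicate 3 (adjusted p from 0.0518 to 0.0602).

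Most of this change lay in the control arm. miR-181d-5p was 1.12 higher in control samples of day 9 than of day 3 (adjusted p = 0.00073) and 1.07 higher at day 21 than at day 3 (adjusted p = 0.000309), beside 14.1% and 22.9% of all miRNAs called. Control arrays of days 3 and 9 shared 1 slide, while those of day 21 lay on another slide with another scan, so day and slide cannot be told apart in the second difference. No day 3 control array was well above background for miR-181d-5p, and of day 9 only 1 of 4 was. Neither difference therefore has a bound, and both interactions with day 3 rest on the same undetected day 3 arrays. Without scaling these differences were 0.08 and 0.53 and neither was called (limma adjusted p = 1 and 0.179). In the toosendanin arm its differences of -0.12, 0.21 and 0.33 between days 9 and 3, 21 and 3, and 21 and 9 were not called, where 36.7%, 7.03% and 43.3% of all miRNAs were. Control samples of days 21 and 9 differed by -0.06 (limma adjusted p = 0.943), with 0.454% of all called.

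With the 12 toosendanin arrays scaled and floored alone, which raises the number of common probes to 675 and was done after seeing the values, all 3 members were measured above the floor on nearly every array. miR-181a-5p was -4.74, -4.36, -4.35 and -4.70 at day 3, -4.91, -4.95, -5.01 and -5.24 (the last at the floor) at day 9, and -4.65, -4.47, -4.64 and -4.55 at day 21. Its lowest values were all of day 9. It was lower at day 9 than at day 3, 2 groups on different slides (a difference of -0.49, SE 0.141, limma adjusted p = 0.0113) and 0.45 higher at day 21 than at day 9, 2 groups that shared a slide (adjusted p = 0.0157), beside 15% lower and 21.4% higher of the 434 miRNAs tested. miR-181a-5p passed the detection filter through days 3 and 21 alone, with 4 of 4 arrays well above background at each. At day 9 it was so on 3 of 4. Both of its calls set day 9 against a group that selected it, so their p-values do not measure a change. miR-181b-5p differed by -0.1, 0.11 and 0.21 between days and miR-181d-5p by 0.26, 0.31 and 0.05, none of them called. With all 24 arrays scaled together the same differences of miR-181a-5p were -0.13 and 0.01, most of its values being at the floor.

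Ratios of 2 members on the same array do not depend on the scaling between arrays. Among toosendanin samples, the log2 ratio of miR-181a-5p to miR-181d-5p was -0.90, -0.80, -0.79 and -1.04 at day 3, -1.69, -1.51, -1.58 and -2.04 at day 9, and -1.12, -1.18, -1.37 and -1.26 at day 21. The 3 days did not overlap. Each of the 3 differences between days (-0.82, -0.35 and 0.47) reached the smallest exact permutation p of 0.0286, which became 0.0515 after adjustment over 9 ratio tests and so did not pass. The ratio of miR-181a-5p to miR-181b-5p averaged 0.14 ± 0.0636 at day 3, -0.32 ± 0.109 at day 9 and -0.01 ± 0.217 at day 21 (SD, n = 4), without overlap between days 3 and 9. That of miR-181b-5p to miR-181d-5p averaged -1.02, -1.38 and -1.22. Days 21 and 9 overlapped in the ratio of miR-181a-5p to miR-181b-5p (exact permutation p = 0.114, 0.147 adjusted). The means of miR-181a-5p against both relatives were lowest at day 9, but none of the 9 tests passed after adjustment. Between the arms these ratios need control signals that are at the floor, and the planned test of them did not pass at any day (lowest adjusted p = 0.0644, exact permutation).

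**Figure D4:**
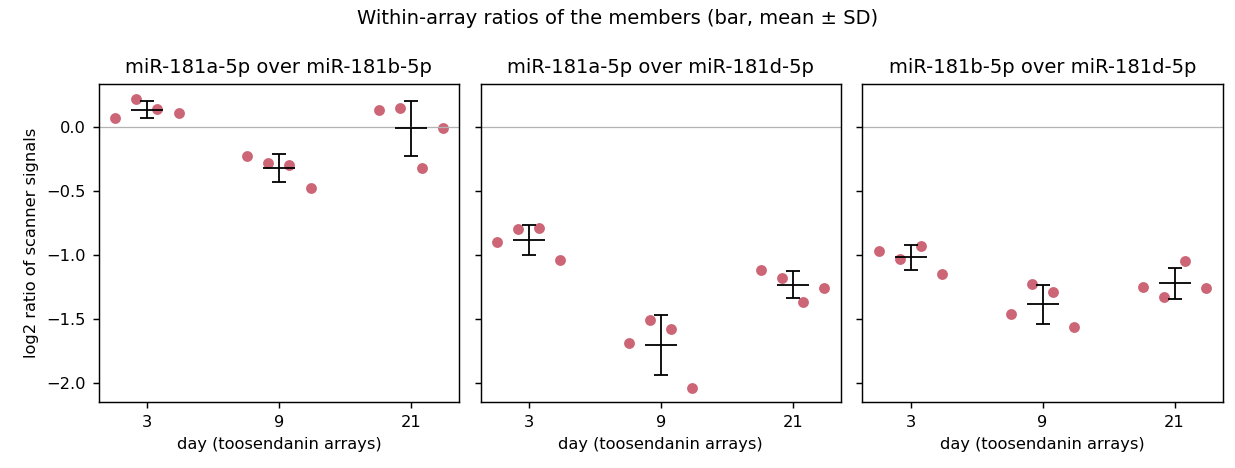
Log2 ratio of scanner signals of 2 members on the same array (y axis) in the 12 toosendanin samples, by day. Points are single arrays and bars are mean ± SD of 4. The ratio of miR-181a-5p to miR-181d-5p averaged -0.88, -1.71 and -1.23 at days 3, 9 and 21.

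Across the 12 toosendanin arrays, Pearson r was 0.654 between miR-181a-5p and miR-181b-5p, -0.0487 between miR-181a-5p and miR-181d-5p and 0.459 between miR-181b-5p and miR-181d-5p. With each group centred on its mean it was 0.688, 0.72 and 0.715, all given as a description because the members share arrays, brightness and similar probes. Over all 24 arrays, the miRNAs closest to miR-181d-5p among the 152 well above background on every array were miR-7020-5p (r = 0.775), miR-21a-5p (0.77), miR-223-3p (0.747), miR-142a-3p (0.742) and miR-126a-3p (0.737). miR-223-3p and miR-142a-3p are abundant in myeloid and other blood cells, and miR-126a-3p in endothelium and platelets. The 24 arrays include 12 control arrays, of which 4 were well above background for miR-181d-5p. Over the 12 toosendanin arrays scaled alone, the closest of 360 candidates were miR-1934-3p (r = 0.888), let-7g-5p (0.81), miR-17-3p (0.787), miR-6366 (0.749) and miR-125a-3p (0.749). None of the miRNAs named over all 24 arrays was among them. Over all 24 arrays the measure has no use for miR-181a-5p and miR-181b-5p, as each had 3 values above the floor.

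Lists of blood cell and tissue miRNAs were set beside miR-181d-5p with the same scaling. Of 6 tested leukocyte miRNAs, of 7 listed, 0 were higher and 3 lower in toosendanin samples at day 9 (median -0.45, against -0.04 for all tested, of which 34.5% were called lower). At day 21, 0 were higher and 4 lower (median -0.88, against 0.01, with 21.8% called lower). The 2 with the smallest adjusted p were miR-223-3p (-1.09, limma adjusted p = 4.58e-05) and miR-146a-5p (-0.89, adjusted p = 0.00125). At day 3, 1 was higher, miR-142a-5p (1.08, limma adjusted p = 3.32e-05), and 2 were lower, beside 29.3% higher and 18.6% lower of all tested. miR-142a-5p was not called at day 9 (0.24) or day 21 (-0.15). These directions hold for the main scaling, since without scaling 98.7% and 100% of all calls at days 9 and 21 were higher. The summed level of the list was 319 to 386% of the 75th percentile in control and 184 to 232% in toosendanin samples of day 9, and 333 to 724% against 208 to 308% at day 21. The platelet list of 3 miRNAs had 1 lower at each of these days, and its summed level was 32.8 to 41.8% in control and 20.7 to 27% in toosendanin samples of day 9, and 37.3 to 50% against 24.9 to 37.7% at day 21. Of the rest of that list, miR-199a-3p differed by -0.63 and -0.47 and miR-191-5p by 0.22 and 0.3, none of them called. At day 9, 3 of 3 tested red cell, 3 of 3 striated muscle and 2 of 3 liver miRNAs were higher, beside 27.7% of all tested. At day 21 these counts were 0, 0 and 1, beside 23.1%. The part of leukocyte or platelet RNA in the level of miR-181d-5p was not tested.

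The array also held 7 other arms of these hairpins. Only miR-181c-5p and miR-181d-3p passed the detection filter. miR-181c-5p passed the mark on 0 of 12 control arrays and on 3, 0 and 4 toosendanin arrays of days 3, 9 and 21. With the toosendanin arrays scaled alone its values ran from -5.24 to -5.04 at day 3, from -5.24 to -4.98 at day 9 and from -4.82 to -4.13 at day 21. It passed the filter through day 21 alone, and 2 of 4 values at each of the earlier days were at the floor, so no test of the difference is given. miR-181d-3p, the partner strand of miR-181d-5p, was well above background on 4 of 4 toosendanin arrays at each day and on 0, 1 and 1 control arrays, and its differences between the arms were 0.13, -0.6 and 0.23, none of them called. The other 5 arms, all of the 3p strand, were well above background on no array.

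In the authors' deposited values, whose scaling and centring are unknown, miR-181a-5p was higher in toosendanin samples by 0.42, 0.31 and 0.3 at the 3 days and miR-181b-5p by 0.5, 0.48 and 0.4 (limma adjusted p at most 5.92e-05). miR-181d-5p differed by 0.44, 0.32 and -0.13, the last not called (adjusted p = 0.416). The column medians of those values lie between 4.373 and 4.4, and the control means of miR-181a-5p were 4.37, 4.39 and 4.48, so its control values sit about where the median probe does.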

How the data were processed

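Serum exosome RNA was labelled with Cy3 and hybridised to a mouse miRNA array, per the labels' protocols. The scanner values are intensity, deposited by array. Feature Extraction 10.7.1.1, named in the file headers, had subtracted the background and no scaling between arrays was recorded. The authors' processed table is taken as log2, from its relation to the deposited scanner values, and its scaling is unknown. Each array held 58594 spots, none saturated, for 4415 probes, and their number limits the precision.

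Control and outlier spots were left out and the spots of a probe averaged. A probe was well above background where over a 0.5 share of its spots was so marked. Arrays were divided by the 75th percentile over 261 common probes, floored and put on the log2 scale, and the brighter probe stood for a miRNA. The 441 miRNAs that passed this mark on 4 of 4 arrays in some group entered 1 limma fit of 6 groups (limma 3.58.1, R 4.3.3) with 12 comparisons. Benjamini-Hochberg adjustment covered all tested miRNAs within each comparison, and not the 12 comparisons together. For a bound on a fold, the dim group was given, array by array, its own signal or the detection limit, whichever was higher. Exact permutation tests were two-sided over 70 allocations.

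The members were given by name, and the members and lists were chosen with earlier results of these data known. Likeness was the Pearson r, from which the 5 closest miRNAs outside the family were named. Same-numbered arrays deviated together at day 9 (r from 0.204 to 0.357 in 4 of 4 pairs) and not at days 3 or 21, with 0 and 2 of 4 pairs over 0.1, so a replicate block was tried. Other scalings, filters, weights and left-out arrays were tried too.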

Additional observations from a re-analysis of the deposited data

Results flagged for a closer look

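The difference of miR-181d-5p between toosendanin and control samples changed between days by a test of the change itself. It was -1.25 from day 3 to day 9 and -0.86 from day 3 to day 21 (limma adjusted p = 0.00106 and 0.0241). Without scaling these changes were 0.22 and -0.02, neither called, and the second call was lost without any 1 of 4 single arrays. No control array of day 3 was well above background for this miRNA.

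Single samples stood apart from the other 3 of their group in 4 cases, a gap that chance gives in about 1 of 20 groups. Each group was checked in unscaled signals, in scaled values and, for toosendanin, on its arrays scaled alone. Groups with values at the floor were left out of the scaled checks. With this many checks, some such gaps can come from chance. The unscaled signal of miR-181b-5p was 10.4 in toosendanin day 3 replicate 2 and 10 in toosendanin day 9 replicate 4, the lowest of each group. On the toosendanin arrays scaled alone, the log2 value of miR-181b-5p was -5.05 in that day 9 sample, and that of miR-181d-5p was -3.53 in toosendanin day 21 replicate 1, again the lowest of each group.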

How the results depend on the processing

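The direction between the arms was set by the scaling, as the report gives for miR-181d-5p. In the order days 3, 9 and 21, the number of members called moved from 0, 1 and 1 to 3, 2 and 3 with no scaling and with the spike-in reference, to 3, 2 and 2 with quantile normalization, to 3, 3 and 2 in the deposited values, to 3, 3 and 3 with normexp and to 2, 2 and 3 with 0.5 of the floor. Of all 441 miRNAs, 47.8%, 62.1% and 44.9% were called with the main scaling, 88.2%, 90.5% and 93.9% with no scaling, 87.3%, 87.3% and 82.3% with the spike-in reference, 61.5%, 71% and 51% with quantile normalization, 64.2%, 75.3% and 47.8% in the deposited values, 84.1%, 91.2% and 81.4% with normexp and 53.5%, 66.4% and 46.3% with 0.5 of the floor. The number was 1 at day 3 and 0 at day 9 with the percentile over all probes, where 50.6% and 61.2% of all miRNAs were called. With the total gene signal it was 1 at day 3, where 40.6% were called. Differences of miR-181a-5p at days 3 and 21, and of miR-181b-5p at days 3, 9 and 21, became 0.71, 0.87, 0.57, 0.51 and 0.88 with no scaling, 0.61, 0.53, 0.48, 0.34 and 0.54 with the spike-in reference, 0.4, 0.36, 0.35, 0.28 and 0.37 with quantile normalization, 1.04, 0.86, 0.9, 0.41 and 0.6 with 0.5 of the floor, and 0.42, 0.3, 0.5, 0.48 and 0.4 in the deposited values, which also gave 0.31 for miR-181a-5p at day 9. The total gene signal gave miR-181a-5p 2.6, 2.79 and 2.91 at the 3 days and miR-181d-5p -1.5 and -0.48 at days 9 and 21, neither called. With normexp, miR-181a-5p was -2.09, -2.8 and -1.97, miR-181b-5p -2.15, -2.74 and -1.97, and miR-181d-5p -1.95 at day 3.

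miR-181d-5p at day 3 was 0.68 with the percentile over all probes, 0.92 with quantile normalization, 1.59 with no scaling, 1.5 with the spike-in reference and 0.44 in the deposited values. At day 9 it reversed to 0.27, 0.66, 1.81, 1.59 and 0.32, and at day 21 it was -0.11 with quantile normalization, -0.13 in the deposited values, and reversed to 1.57 with no scaling and 1.09 with the spike-in reference. Its change of the difference from day 9 to day 21 reversed to -0.68, and its control difference of day 21 minus day 9 to 0.68, with the percentile over all probes, and the latter to 0.47 in the deposited values. From day 3 to day 9 its change reversed to 0.22 with no scaling and 0.09 with the spike-in reference. From day 3 to day 21 it reversed to 0.14 with normexp, as did its control difference, to -0.23. Ratios of miR-181a-5p and miR-181b-5p to miR-181d-5p at day 9 reversed to -0.3 and -0.24 with normexp, and that of miR-181b-5p at day 3 to 0.77 with 0.5 of the floor. The cause was not tested.

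With the replicate block, miR-181d-5p was -1.12 at day 9 (limma adjusted p = 2.86e-05) and -0.73 at day 21, and the pairing changed none of the 36 calls. With single arrays left out, miR-181d-5p ranged from 0.01 to 0.29 at day 3, from -1.22 to -1.06 at day 9 and from -0.86 to -0.65 at day 21, and miR-181a-5p at day 3 from 0.07 to 0.17. miR-181a-5p was called at day 3 without toosendanin day 3 replicate 1 or 4 (limma adjusted p = 0.0112 and 0.0113), so the number of members called there ranged from 0 to 1. Array weights, no filter, the mean of the probes and the compared groups alone changed no call between the arms at a single day, and 1 of 36 calls each in all. The mean of the probes and no filter ended the call on the change of miR-181d-5p from day 3 to day 21 (-0.63 and -0.86). Array weights and the compared groups alone added a call on its toosendanin difference of day 21 minus day 9 (0.32 and 0.33, limma adjusted p = 0.025 and 0.0359). Of all miRNAs, 84, 109 and 70 were called at the 3 days when they had to be well above background on all arrays, which leaves 152 miRNAs and no member, against 211, 274 and 198. With no scaling, the spike-in reference and normexp, 389, 385 and 371 were called at day 3 and 414, 363 and 359 at day 21. Without scaling, 99.5%, 98.7% and 100% of calls were higher, against 61.1%, 44.5% and 51.5%. Signal over background limits miR-181a-5p and miR-181b-5p in control samples, where neither was detected.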
